A study of Rattus norvegicus with 36 samples.

Results

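The genes described are 5 of the 29516 Ensembl genes listed for the rat, namely Tph1 (ENSRNOG00000011672), Ddc (ENSRNOG00000004327), Gch1 (ENSRNOG00000011039), Maoa (ENSRNOG00000002848) and Maob (ENSRNOG00000029778), which were chosen by name because their enzymes make or break down serotonin. Across all 36 libraries, 24811 of the listed genes had at least 1 read-pair. The study asked how the pineal transcriptome depends on the nerve supply of the gland, and measured it by RNA-Seq in 24 libraries of freshly taken glands, 9 libraries of cultured glands and 3 libraries that compare the gland with other tissue. All animals were Sprague-Dawley rats kept under 14 h of light and 10 h of dark. The in vivo glands came from 40-day-old rats of both sexes, taken at mid-day (ZT7, 7 h after lights on) or midnight (ZT19), with 3 libraries for each of 4 surgical groups at each time. Controls were not operated on, while Sham rats underwent a sham operation on postnatal day 5. On the same day both superior cervical ganglia were removed from the SCGX rats, and in the DCN rats the ganglia were left in place but cut off from the spinal cord (decentralization). The cultured glands came from females aged 2 to 3 months, were kept for 48 h, and then spent 6 h without treatment, with 1 µM norepinephrine (NE) or exposed to DBcAMP (dibutyryl-cyclic-AMP, which enters cells) at 500 µM, with 3 libraries per condition. Glands were pooled for each library, and replicates are therefore pools rather than animals. The tissue comparison had 1 pineal library at mid-day, 1 at midnight and 1 of RNA mixed in equal parts from 15 tissues of 3 rats. The mixed tissues were taken at mid-day (ZT7) only, so tissue and time cannot be told apart where midnight glands are set beside them.

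Serotonin is made from tryptophan in 2 steps. Tryptophan hydroxylase 1, encoded by Tph1, adds a hydroxyl group and sets the pace of the pathway, and aromatic L-amino acid decarboxylase, encoded by Ddc, then removes the carboxyl group. The hydroxylase needs the cofactor tetrahydrobiopterin, and GTP cyclohydrolase 1, encoded by Gch1, makes the first intermediate of that cofactor. Serotonin is broken down by the monoamine oxidases of the outer mitochondrial membrane, of which monoamine oxidase A (Maoa) has the higher affinity for serotonin and monoamine oxidase B (Maob) is known from serotonin-containing cells. In the pineal gland serotonin is also the precursor of melatonin, which is made at night when nerve fibers from the superior cervical ganglia release norepinephrine and so raise cyclic AMP in pinealocytes.

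The levels given are RPKM values, in which each count is divided by the gene's length and by the library's total, so that genes can be compared. All 24 in vivo libraries had the members in the same order of RPKM, with Tph1 first, then Ddc, Gch1, Maob and Maoa. The span between them was wide. Tph1 lay between 6431 and 13328 RPKM with a median of 10082, and between 1.11% and 2.3% of all read-pairs on genes came from this 1 gene, which ranked from 3 to 5 among all genes by RPKM. Ddc lay between 303 and 822 RPKM with a median of 542, and Gch1 between 88.5 and 254 RPKM with a median of 174. Maob lay between 47.1 and 97.0 RPKM with a median of 65.9, and Maoa between 5.97 and 18.2 RPKM with a median of 10.002. The gene with the fewest read-pairs, Maoa, still had 175 to 513 per in vivo library. The order of Gch1 depends on its counted length, which was 571 bases, against 1726 for Tph1, 2022 for Ddc, 1843 for Maoa and 2376 for Maob.

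Between 12985072 and 18504240 read-pairs per in vivo library were counted on genes, between 12556861 and 18524435 per culture library, and between 28836161 and 38574186 in the tissue comparison. DCN day replicate 1 and Sham night replicate 3 stood apart from the other in vivo libraries, at 56.3 and 46.9 on the second principal component, where the others lay between -20.7 and 2.36. In the same 2 libraries Maoa was at its highest, 17.5 and 18.2 RPKM, and the part of whatever sets them apart in the members' values was not tested. Beside each fold change, difference or log2 ratio of the members below that moved by more than 0.1 on the log2 scale when these libraries were left out, the value without them is given. Glands are mixtures of cells, so that fewer cells of a type and less RNA per cell cannot be told apart for any of these genes, and the marker lists of pineal cell types were not analysed here.

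The promoters of Tph1, Ddc and Gch1 are shown because these are the members that changed in the comparisons. Each line gives the 250 bases before a transcription start site, 5′ to 3′ on the strand of the gene, from RefSeq on build GRCr8, which differs from the build of the counts. Capitals mark matches to any of 6 motifs searched on both strands, namely the cyclic AMP response element TGACGTCA, its shorter form TGACG (which also lies within TGACGTCA), TAATCC (bound by factors of the Crx and Otx kind), CACGTG (an E-box), CCAAT and GGGCGG (a GC box). RefSeq gave 3 start sites for Ddc, of which the most upstream and the next are shown, and the counts do not tell which was used.
Tph1, chr1:106314629-106314878, minus strand: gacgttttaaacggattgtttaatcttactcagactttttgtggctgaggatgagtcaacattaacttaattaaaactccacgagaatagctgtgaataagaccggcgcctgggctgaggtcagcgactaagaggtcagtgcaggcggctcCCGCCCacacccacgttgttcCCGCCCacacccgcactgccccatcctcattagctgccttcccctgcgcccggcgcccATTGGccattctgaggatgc
Ddc, site 1, chr14:90682784-90683033, minus strand: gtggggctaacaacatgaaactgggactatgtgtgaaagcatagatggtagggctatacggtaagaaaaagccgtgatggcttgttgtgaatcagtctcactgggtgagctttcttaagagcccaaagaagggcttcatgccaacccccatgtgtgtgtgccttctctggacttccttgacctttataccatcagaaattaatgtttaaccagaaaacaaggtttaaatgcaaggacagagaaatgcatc
Ddc, site 2, chr14:90675627-90675876, minus strand: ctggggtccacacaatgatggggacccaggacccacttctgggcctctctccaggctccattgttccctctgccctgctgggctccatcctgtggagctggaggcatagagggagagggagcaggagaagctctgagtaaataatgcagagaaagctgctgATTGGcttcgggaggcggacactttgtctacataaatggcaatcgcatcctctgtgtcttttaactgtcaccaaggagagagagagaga
Gch1, chr15:22917413-22917662, minus strand: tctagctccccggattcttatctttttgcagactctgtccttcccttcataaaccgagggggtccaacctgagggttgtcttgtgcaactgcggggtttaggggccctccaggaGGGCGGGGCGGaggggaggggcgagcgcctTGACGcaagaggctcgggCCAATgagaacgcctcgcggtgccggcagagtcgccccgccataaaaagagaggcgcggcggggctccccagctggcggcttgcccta

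Gch1 was the only member with a TGACG match in this window, which began 106 bases before the start, with a CCAAT match beginning 88 bases before it and 2 overlapping GGGCGG matches. TGACG was found in 18.2% of the 33469 rat promoter windows of the same length, CCAAT in 34.0% and GGGCGG in 30.5%. The Tph1 window held 2 GGGCGG matches and 1 CCAAT match, all on the other strand, and the second Ddc window held 1 CCAAT match. The genes of the monoamine oxidases lie on chromosome X on opposite strands. The Maoa window held 4 GGGCGG matches, and the Maob window held 2 GGGCGG matches and 1 CCAAT match. TGACGTCA (1.59% of windows), TAATCC (6.34%) and CACGTG (5.59%) matched in none of the 7 windows of the members. A match is a run of letters and not a site shown to be bound.

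The first comparison asked which members differ between night and day in glands with their nerve supply. Ddc was higher at night and Tph1 and Gch1 were lower in Control. Tph1 stood at 12963, 12020.2 and 11636 RPKM in the Control day libraries and at 7845, 7713 and 7798 RPKM at night. Ddc stood at 313, 345 and 306 RPKM by day and at 550.2, 527 and 533 RPKM at night. Gch1 stood at 219.9, 180.1 and 219 RPKM by day and at 149.8, 88.5 and 103 RPKM at night. In none of these 3 genes did the day and night libraries of Control overlap, and the SD of Tph1 over the night libraries was 67.0 RPKM. With edgeR's quasi-likelihood test, TMM scaling and adjustment over all genes tested, Ddc rose at night by 1.89-fold (log2 fold change 0.91 ± 0.09 (SE), adjusted p = 0.000103). Gch1 fell by 37.9% (log2 fold change -0.69 ± 0.16, adjusted p = 0.0112) and Tph1 fell by 28.0% (log2 fold change -0.47 ± 0.14, adjusted p = 0.0315). Maoa was at 11.2, 10.8 and 9.95 RPKM by day and at 8.54, 7.23 and 5.97 RPKM at night, without overlap, with a log2 fold change of -0.38 ± 0.14 and adjusted p = 0.063. Maob was at 71.3, 57.4 and 68.1 RPKM by day and at 72.6, 53.4 and 56.7 RPKM at night, which overlap (log2 fold change 0.07 ± 0.11, adjusted p = 0.684). So 3 of the 5 members were called, 1 higher and 2 lower, where 35.3% of the 15622 genes tested were called, and the members' median log2 fold change was -0.38 where that of all genes was -0.03.

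The calls for Ddc and Gch1 held in all 12 alternatives run, with log2 fold changes between 0.74 and 0.99 and between -0.88 and -0.54. The call for Tph1 was lost when any Control library other than night replicate 1 was left out, with adjusted p between 0.0752 and 0.136 and log2 fold changes between -0.52 and -0.43. Scaling by library size, which is the scale of RPKM, moved the median of all genes by -0.18 on the log2 scale in this comparison, and on that scale Maoa was also called (log2 fold change -0.55, adjusted p = 0.0171).

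In Sham the night/day differences of Tph1, Ddc and Gch1 had the direction seen in Control, and only that of Ddc was called by edgeR. Tph1 stood at 11009.6, 10065 and 8678 RPKM by day and at 6431, 7654 and 6823 RPKM at night. Ddc stood at 303, 376 and 318 RPKM by day and at 492, 478 and 399 RPKM at night. For Tph1 and Ddc every night library lay on the same side of every day library. Ddc rose by 1.44-fold (log2 fold change 0.53 ± 0.14, adjusted p = 0.0412, edgeR), and the log2 fold change was 0.73 (adjusted p = 0.00742) without Sham night replicate 3. Tph1 had a log2 fold change of -0.44 ± 0.17 (adjusted p = 0.121), which was -0.31 (adjusted p = 0.266) without the same library. DESeq2 called Tph1 (-0.37, adjusted p = 0.0309), as did edgeR with library size only (-0.51, adjusted p = 0.0427). Gch1 was at 237, 204 and 162 RPKM by day and at 105, 138 and 185 RPKM at night, which overlap (log2 fold change -0.43 ± 0.22, adjusted p = 0.214, and -0.54 without Sham night replicate 3). Maoa was at 9.01, 7.65 and 11.1 RPKM by day and at 7.31, 9.15 and 18.2 RPKM at night, and its log2 fold change of 0.38 ± 0.32 (adjusted p = 0.462) was 0.02 without Sham night replicate 3. Maob was at 65.4, 57.0 and 47.1 RPKM by day and at 57.2, 66.3 and 77.1 RPKM at night (log2 fold change 0.31 ± 0.15, adjusted p = 0.204). Thus 1 of 5 members was called where 20.6% of 16050 genes were. The call for Ddc was lost when any Sham library other than night replicate 3 was left out (adjusted p between 0.0565 and 0.133) and with the replicate number as a block (adjusted p = 0.0522).

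**Figure D1:**
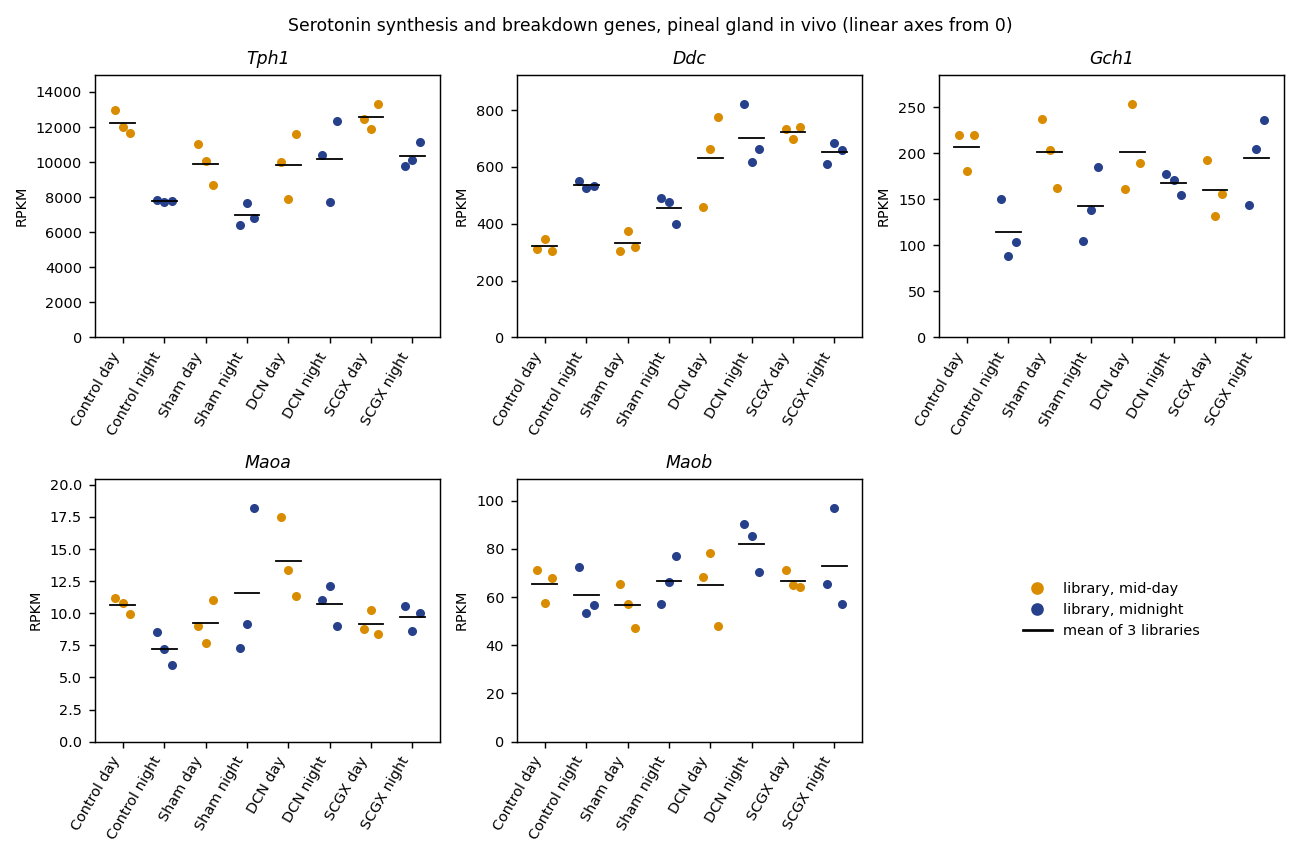
RPKM of the 5 genes in each in vivo library (points, on linear axes from 0) with the mean of 3 libraries (lines), by surgical group and time. Ddc was between 303 and 376 RPKM in the day libraries of Control and Sham and between 459 and 777 RPKM in those of DCN and SCGX, and the 3 Control night values of Tph1 nearly coincide.

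Control and Sham were compared directly at each time and by the difference of their night/day changes. No member was called in any of these 3 comparisons. By day 0 of 5 members were called where 0.0316% of 15822 genes were (edgeR), with 1 member, Tph1, at an unadjusted p under 0.05 and 0 called by DESeq2. At night 0 members were called where 0% of 15780 genes were, with 0 members at an unadjusted p under 0.05 and 0 called by DESeq2, while 1096 of all genes had an unadjusted p under 0.05 and DESeq2 called 76. The difference of the night/day change between Sham and Control was called in 0 of 5 members (edgeR; 1 at an unadjusted p under 0.05, 0 by DESeq2) and in 0.0126% of 15893 genes. For Ddc the change in Sham was smaller by 0.31 ± 0.17 on the log2 scale, with a 95% interval of the difference (Sham minus Control) from -0.68 to 0.06 and adjusted p = 0.639, and the difference was -0.19 without Sham night replicate 3. The interval for Tph1 was from -0.29 to 0.51.

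The night/day difference was next examined in glands that had lost their central input. In neither operated group was any member called. In DCN, Tph1 stood at 9978, 7888 and 11624 RPKM by day and at 10395, 7732 and 12351 RPKM at night. Ddc stood at 459, 662 and 777 RPKM by day and at 822, 619 and 664 RPKM at night. Day and night overlapped in both genes, and the spread among the DCN libraries was wider than in Control, with an SD of 1872 RPKM for Tph1 by day against 683 in Control. The log2 fold changes were 0.08 ± 0.23 for Tph1 (95% interval -0.47 to 0.62, adjusted p = 0.949) and 0.18 ± 0.21 for Ddc (-0.31 to 0.67, adjusted p = 0.825), and the value for Ddc was -0.01 without DCN day replicate 1. Gch1 had -0.23 ± 0.15 and Maoa -0.36 ± 0.17, and Maob had 0.37 ± 0.17, with adjusted p between 0.565 and 0.664 for these 3 genes, and without DCN day replicate 1 the values were -0.37 for Gch1 and -0.18 for Maoa. In all, 0 of 5 members were called where 0% of 15928 genes were (edgeR; for the members 0 at an unadjusted p under 0.05 and 0 called by DESeq2, and for all genes 1431 and 120).

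In SCGX, Ddc was at 732, 697 and 741 RPKM by day and at 610.2, 684 and 659 RPKM at night, so that every night library lay below every day library, opposite to Control and Sham. Its log2 fold change was -0.19 ± 0.07 (95% interval -0.34 to -0.04, adjusted p = 0.17). Tph1 was at 12433, 11903 and 13328 RPKM by day and at 9759, 10099 and 11149 RPKM at night, again without overlap, with a log2 fold change of -0.32 ± 0.09 (95% interval -0.53 to -0.12, adjusted p = 0.111 by edgeR and 0.00234 by DESeq2). Gch1 was at 192, 132 and 156 RPKM by day and at 144, 205 and 236 RPKM at night, which overlap (log2 fold change 0.24 ± 0.18, adjusted p = 0.532). Maoa and Maob had log2 fold changes of 0.05 ± 0.11 and 0.09 ± 0.17. In total 0 of 5 members were called where 1.85% of 15551 genes were, with 2 members (Tph1 and Ddc) at an unadjusted p under 0.05 and 1 (Tph1) called by DESeq2.

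Whether the night/day change itself differed was tested by the interaction of group and time over 12 libraries each. Ddc was the member whose change differed between SCGX and Sham, by -0.79 ± 0.18 on the log2 scale (SCGX minus Sham, 95% interval -1.18 to -0.41, adjusted p = 0.0082), and it was called in all 18 alternatives, with values between -0.93 and -0.61, of which -0.93 came without Sham night replicate 3. The other members had differences of 0.05 ± 0.18 for Tph1, 0.61 ± 0.31 for Gch1, -0.38 ± 0.35 for Maoa and -0.28 ± 0.25 for Maob, with adjusted p between 0.207 and 0.895, and without Sham night replicate 3 that of Gch1 was 0.78 (adjusted p = 0.0918) and that of Maoa 0.02. Thus 1 of 5 members was called where 18.5% of 15894 genes were. Between DCN and Sham 0 of 5 members were called where 11.2% of 16047 genes were (edgeR; 0 members at an unadjusted p under 0.05 and 0 called by DESeq2). There the difference for Ddc was -0.40 ± 0.29 (95% interval -1.03 to 0.23, adjusted p = 0.41), and it was -0.73 (adjusted p = 0.0596) without DCN day replicate 1 and Sham night replicate 3. Between SCGX and DCN 0 members and 0% of 15779 genes were called (edgeR; 0 members at an unadjusted p under 0.05 and 0 called by DESeq2, and for all genes 1665 and 78), with a difference for Ddc of -0.36 (interval -0.88 to 0.15), which was -0.19 without DCN day replicate 1.

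The operated groups were then compared with Sham at each time. Ddc was higher in SCGX than in Sham by day, and in both operated groups its libraries lay above those of Sham at both times. The Ddc values of Sham by day, 303 to 376 RPKM, lay below the 459 to 777 RPKM of DCN and the 697 to 741 RPKM of SCGX. In SCGX by day Ddc was 2.21-fold higher than in Sham (log2 fold change 1.14 ± 0.10, adjusted p = 0.000591, edgeR) and stood at percentile 97.9 of the fold changes of all genes tested. This call held in all 12 alternatives (highest adjusted p = 0.00631). In DCN by day the log2 fold change of Ddc was 0.87 ± 0.20 (95% interval 0.40 to 1.34), which edgeR did not call (adjusted p = 0.0705) and DESeq2 did (adjusted p = 0.000143). Without DCN day replicate 1, the DCN library with the lowest Ddc, it was 1.06 and was called (adjusted p = 0.0197). At night the Ddc values of Sham, 399 to 492 RPKM, still lay below the 619 to 822 RPKM of DCN and the 610.2 to 684 RPKM of SCGX, with log2 fold changes of 0.51 ± 0.16 (adjusted p = 0.072) and 0.41 ± 0.12 (adjusted p = 0.0555). Those 2 values were 0.32 (adjusted p = 0.169) and 0.21 (adjusted p = 0.0988) without Sham night replicate 3. The DCN night value was called in 3 of 13 alternatives and the SCGX night value in 1 of 13. Those for DCN were DESeq2 (0.44, adjusted p = 0.0435), library size only (0.62, adjusted p = 0.0214) and all 24 libraries in 1 model (0.46, adjusted p = 0.032).

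Tph1 was higher in SCGX than in Sham at night. Its SCGX night values of 9759, 10099 and 11149 RPKM lay above the Sham night values of 6431, 7654 and 6823 RPKM. The log2 fold change was 0.46 ± 0.12 (1.38-fold, adjusted p = 0.0386, edgeR). The call was lost without Sham night replicate 1 or 3 or any SCGX night library (adjusted p between 0.065 and 0.171). The log2 fold change was 0.335 without Sham night replicate 3, 1 of the libraries that stood apart, and between 0.41 and 0.55 when any 1 other library was left out. The call was also lost with median-of-ratios size factors (0.40, adjusted p = 0.0946), with all 24 libraries in 1 model (0.41, adjusted p = 0.0646) and with the replicate number as a block (0.47, adjusted p = 0.111). By day the log2 fold change of Tph1 in SCGX was 0.36 ± 0.13 (adjusted p = 0.114 by edgeR and 0.0039 by DESeq2). DESeq2 was the only 1 of 12 alternatives that called it. In DCN the log2 fold change of Tph1 was -0.07 ± 0.18 by day and 0.43 ± 0.22 at night (adjusted p = 0.862 and 0.223), the latter being 0.32 without Sham night replicate 3.

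Gch1 and the monoamine oxidases were called in none of the 4 comparisons with Sham. Gch1 had log2 fold changes between -0.31 and 0.35, and without the libraries that stood apart it had 0.08 in DCN by day, 0.25 in DCN at night and 0.46 in SCGX at night. Maob had between 0.03 and 0.26, and its value in SCGX by day, 0.26, was 0.38 and called (adjusted p = 0.047) without Sham day replicate 1. Maoa in DCN by day was at 17.5, 13.4 and 11.3 RPKM against 9.01, 7.65 and 11.1 RPKM in Sham, without overlap (log2 fold change 0.55 ± 0.19, adjusted p = 0.158), and the value was 0.37 without DCN day replicate 1. At night the log2 fold change of Maoa against Sham was -0.20 ± 0.31 in DCN and -0.34 ± 0.31 in SCGX, and these were 0.17 and 0.02 without Sham night replicate 3. By day 1 of 5 members was called in SCGX against Sham where 11.4% of 15758 genes were, and 0 of 5 in DCN where 2.53% of 16076 genes were (edgeR; 2 members at an unadjusted p under 0.05, 1 called by DESeq2). At night 1 of 5 was called in SCGX where 20.8% of 15886 genes were, and 0 of 5 in DCN where 17.1% of 15939 genes were (edgeR; 1 member at an unadjusted p under 0.05, 1 called by DESeq2).

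SCGX and DCN were compared with each other. By day 0 of 5 members were called where 0.761% of 15902 genes were (edgeR; 2 members, Tph1 and Maoa, at an unadjusted p under 0.05, and 1, Tph1, called by DESeq2). The log2 fold changes by day (SCGX over DCN) were 0.42 ± 0.16 for Tph1 and -0.55 ± 0.16 for Maoa (adjusted p = 0.206 and 0.139), and that of Maoa was -0.37 without DCN day replicate 1. At night 0 of 5 members and 0% of 15579 genes were called (edgeR; 0 members at an unadjusted p under 0.05 and 0 called by DESeq2, and for all genes 592 and 9), and the interval for Ddc was from -0.37 to 0.16.

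**Figure D2:**
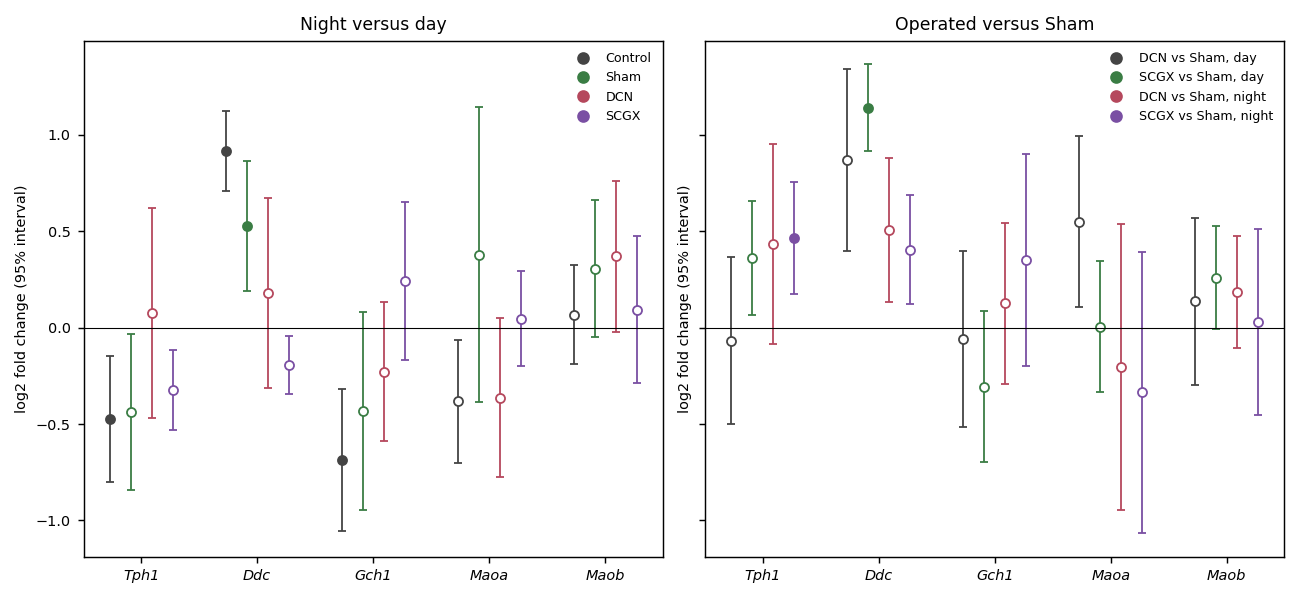
Log2 fold changes of the 5 genes with 95% intervals from edgeR, for night versus day within each group (left) and for the operated groups against Sham at the same time (right). Filled points passed an adjusted p of 0.05 and open points did not. Ddc is 0.91 in Control night/day and 1.14 in SCGX against Sham by day.

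The relation between the synthesis genes was followed inside each library, where the scaling between libraries cancels. Control and Sham were grouped as intact and DCN and SCGX as operated, with 6 libraries each per time, and 9 ratio comparisons were adjusted together. Tph1 exceeded Ddc by 34.8 to 41.5 times in the Control day libraries and by 26.8 to 36.3 times in Sham day. The excess was 14.3 to 14.6 times in Control night and 13.1 to 17.1 times in Sham night. The ratio in the operated glands lay near the intact night value at both times, with 11.9 to 21.8 times in DCN day, 12.5 to 18.6 times in DCN night, 17.0 to 18.0 times in SCGX day and 14.8 to 16.9 times in SCGX night. The levels themselves did not. Group means of Tph1 were 9830 to 12555 RPKM in the operated glands, against 7785 in Control night and 6969 in Sham night. Those of Ddc were 633 to 723 RPKM in the operated glands, against 537 in Control night and 456 in Sham night. Part of this lies in the scale of RPKM. Against Sham at night, library size scaling raised all genes by a median log2 of 0.11 in DCN and 0.10 in SCGX. The fold changes with TMM are those given above. The ratio of Ddc to Tph1 was 2.26 times as high at night as by day in the intact glands (exact two-sided permutation p = 0.00216, the smallest that 6 against 6 allows, adjusted p = 0.00974), and the groups did not overlap. Ddc and Tph1 had each separated these libraries in opposite directions, so this outcome follows from their values above and is not separate support. In the operated glands the ratio was 1.10 times as high at night, with overlap (exact permutation p = 0.403, adjusted p = 0.63). By day it was 2.04 times as high in the operated as in the intact glands, without overlap (exact permutation p = 0.00216, adjusted p = 0.00974). The ratio of Gch1 to Tph1 overlapped between the joined groups in all 3 comparisons, with adjusted p between 0.63 and 0.704. The operated groups were unlike in this ratio. Tph1 exceeded Gch1 by 31.1 to 62.1 times in DCN day and by 64.6 to 90.5 times in SCGX day. At night the excess was 45.2 to 80.1 times in DCN and 47.3 to 67.8 times in SCGX. By group mean of the log2 ratio it was larger at night in DCN and smaller in SCGX, which was not tested.

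The monoamine oxidases kept Maob above Maoa in every in vivo library. By RPKM the excess was 5.32 to 6.84 times in Control day and 7.38 to 9.49 times in Control night. In DCN it was 3.90 to 5.85 times by day and 7.01 to 8.19 times at night, also without overlap. Day and night overlapped in Sham (4.26 to 7.45 and 4.24 to 7.82 times) and in SCGX (6.36 to 8.13 and 5.67 to 11.3 times). The ratio was not tested within single groups. Over the 24 libraries the lowest ratio was 3.90, in a DCN day library, and the highest 11.3, in an SCGX night library. With the groups joined, the log2 ratio was higher at night by 0.24 in the intact and by 0.37 in the operated glands, with overlap in both joined sets (exact permutation p = 0.281 and 0.143, adjusted p = 0.63 and 0.429). It differed by -0.08 between operated and intact glands by day (exact permutation p = 0.712). Without the libraries that stood apart these 3 differences were 0.39 (adjusted p = 0.0649), 0.26 and 0.03.

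**Figure D3:**
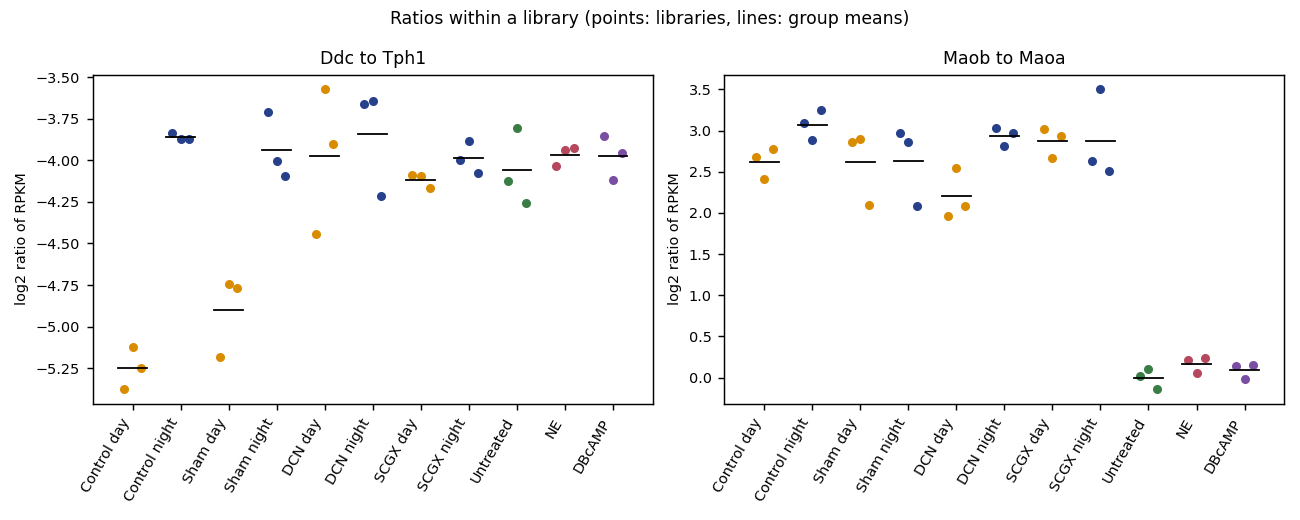
Log2 ratio of RPKM within each library for Ddc to Tph1 (left) and Maob to Maoa (right), with points for libraries and lines for group means, and axes that do not start at 0. The mean of the Control day libraries is the lowest for Ddc to Tph1 (-5.25), and 1 Sham day library lies among them, while the cultured glands lie near 0 for Maob to Maoa, where the lowest in vivo library lies at 1.96.

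The members did not follow a common pattern in vivo. Over the 24 in vivo libraries Pearson's r of log2 CPM (counts scaled to library totals) between pairs of members was between -0.34 (Ddc and Gch1) and 0.27 (Ddc and Maob), which is a description only, since the libraries fall into groups and share their scaling. Among 11698 genes with a mean count of at least 50, the gene most like Ddc was ENSRNOG00000016505 (r = 0.948), and 12 genes exceeded 0.9. Tph1 had no gene above 0.9, and the most like it was ENSRNOG00000005061 (r = 0.843). Neither identifier has a symbol in the files. The highest r was 0.935 for Gch1 and 0.760 for Maob. For Maoa it was 0.880, and 0.662 for the same gene without the 2 libraries that stood apart.

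Cultured glands were used to ask what norepinephrine and cyclic AMP do to the isolated gland. With DBcAMP, Gch1 was higher and Tph1 and Ddc were lower than in untreated glands. Tph1 was at 3391, 2600.5 and 3375 RPKM untreated and at 1840.3, 2348 and 2463 RPKM with DBcAMP. Ddc was at 195, 186 and 177 RPKM untreated and at 127, 135 and 159 RPKM with DBcAMP. Gch1 was at 156, 137 and 152 RPKM untreated and at 179.9, 163 and 253 RPKM with DBcAMP. In these 3 genes no treated library fell within the range of the untreated ones. Gch1 rose 1.47-fold (log2 fold change 0.56 ± 0.13, adjusted p = 0.00381, edgeR), and this call held in all 12 alternatives with log2 fold changes between 0.35 and 0.69, of which the lowest came without DBcAMP replicate 3. Tph1 fell by 21.7% (log2 fold change -0.35 ± 0.12, adjusted p = 0.0303) and Ddc fell by 16.7% (log2 fold change -0.26 ± 0.08, adjusted p = 0.0207). Both of these calls depended on single libraries. That of Tph1 was lost without Untreated replicate 1 or 3 or DBcAMP replicate 1 (adjusted p between 0.0898 and 0.154), where its log2 fold change was as near to 0 as -0.22. That of Ddc was lost without Untreated replicate 1 or 2 or DBcAMP replicate 1 or 2 (adjusted p between 0.057 and 0.112). Maoa and Maob had log2 fold changes of -0.07 ± 0.09 and 0.03 ± 0.10. In all 3 of 5 members were called, where 42% of 15196 genes were, and library size scaling moved the median of all genes by -0.14.

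With NE no member was called. Tph1 was at 2726, 2240.0 and 2202 RPKM, overlapping the untreated libraries, with a log2 fold change of -0.29 ± 0.12 (adjusted p = 0.0821). Ddc was at 166, 146 and 145 RPKM, below all untreated libraries, with a log2 fold change of -0.19 ± 0.08 (adjusted p = 0.0825). Gch1 was at 148, 154 and 174 RPKM, overlapping the untreated ones, with a log2 fold change of 0.19 ± 0.08 (adjusted p = 0.0799). Maoa was at 18.0, 25.1 and 18.1 RPKM and Maob at 20.8, 26.0 and 21.4 RPKM, with log2 fold changes of 0.03 ± 0.11 and 0.19 ± 0.10. Here 0 of 5 members were called where 30.2% of 15219 genes were (edgeR; 3 members, Tph1, Ddc and Gch1, at an unadjusted p under 0.05, and 0 called by DESeq2). Scaling by library size moved the median of all genes by -0.09, and on that scale Tph1 (-0.39, adjusted p = 0.0148) and Ddc (-0.29, adjusted p = 0.00622) were called.

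Directly compared, NE and DBcAMP differed in 0 of 5 members, where 6.07% of 15029 genes were called (edgeR; 1 member, Gch1, at an unadjusted p under 0.05, and 0 called by DESeq2). The interval of the difference (NE over DBcAMP, log2) was from -0.66 to -0.09 for Gch1 (adjusted p = 0.129), from -0.20 to 0.33 for Tph1 and from -0.13 to 0.28 for Ddc. The value for Gch1 was -0.16 without DBcAMP replicate 3, the library with the highest Gch1. Gch1 exceeded Ddc in RPKM in 3 of 3 DBcAMP libraries, 2 of 3 NE libraries and 0 of 3 untreated ones.

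The levels of the untreated cultures were set beside those of Control day glands, without a test, since the cultures came from older animals of 1 sex (females aged 2 to 3 months, against 40-day-old rats of both sexes) and were sequenced as a separate pool, so that culture, age, sex and experiment cannot be told apart. Tph1 was at 3122 ± 452 RPKM (SD, n = 3) in culture against 12206 ± 683 in Control day, and Ddc at 186 ± 8.94 against 321 ± 21.0. Gch1 was at 149 ± 9.96 RPKM against 206 ± 22.8. Maob was at 21.3 ± 2.61 RPKM against 65.6 ± 7.26, and Maoa at 21.3 ± 1.24 against 10.6 ± 0.621. Only Maoa stood higher in culture, and the pair of oxidases stood at about the same level there, with Maob above Maoa in 2 of 3 untreated libraries, 3 of 3 NE libraries and 2 of 3 DBcAMP libraries. Tph1 exceeded Ddc by 13.98 to 19.1 times in the untreated cultures.

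**Figure D4:**
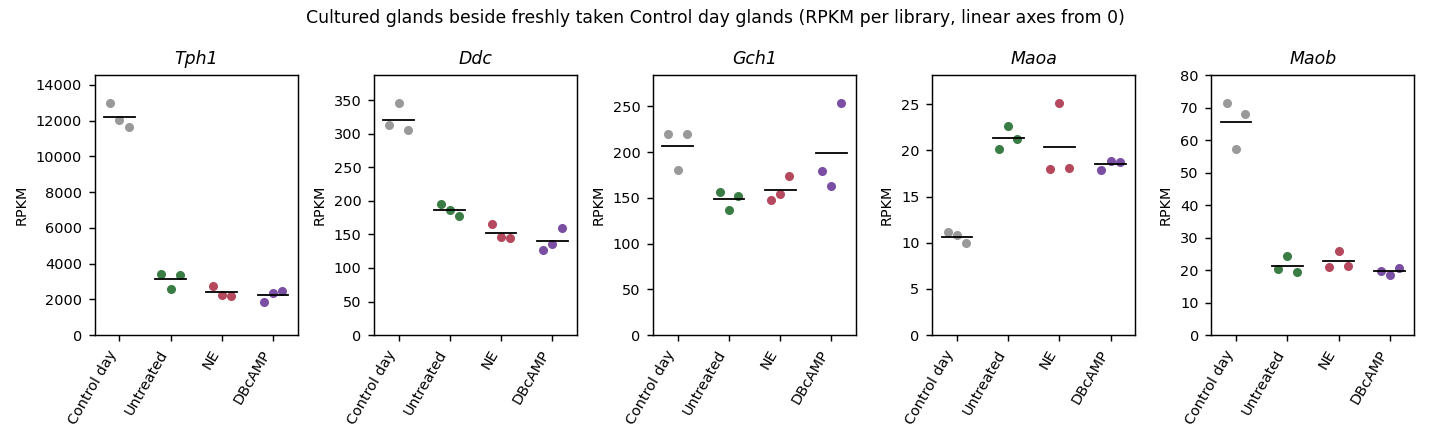
RPKM of the 5 genes in Control day glands and in untreated, NE-treated and DBcAMP-treated cultures (points for libraries, lines for the mean of 3, linear axes from 0). Tph1 lies between 1840.3 and 3391 RPKM in the 9 cultures and between 11636 and 12963 RPKM in Control day, and Maoa is the gene whose culture values all lie above those of Control day.

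The last comparison set the members in the pineal gland beside a mix of 15 tissues taken at mid-day. A mix does not give the level in any 1 of its tissues, so whether a gene is particular to the gland was not tested. The night ratios also set a midnight gland library beside mid-day tissue. Each side was 1 library, so no test was made, and the exact 95% intervals cover counting error only. Tph1 had 388698 read-pairs in the pineal day library (7809.7 RPKM) and 449873 at night (7092 RPKM) against 613 in mixed tissue (9.21 RPKM). With median-of-ratios scaling this made Tph1 852 times (787 to 923.8) as high by day and 897 times (829 to 972) as high at night, at percentile 99.7 and 99.8 of all genes. Ddc was at 360.5 and 388 RPKM against 17.5 RPKM, a ratio of 20.6 (19.5 to 21.8) by day and 25.8 (24.4 to 27.2) at night. Gch1 was at 162 and 157 RPKM against 3.22 RPKM, a ratio of 50.3 (39.8 to 64.7) by day and 56.9 (45.0 to 73.0) at night, which rests on 71 read-pairs in mixed tissue. A ratio above 8 was reached by 1.91% of 17744 genes by day and 2.68% of 17742 at night, and by all 3 synthesis genes at both times. Maob was at 36.0 and 67.8 RPKM against 19.9 RPKM (ratios of 1.82 and 3.97). Maoa was lower in the gland, at 7.0 and 5.42 RPKM against 33.9 RPKM, which made it 4.82 times (4.32 to 5.39) as high in mixed tissue as in the day gland and 5.37 times (4.81 to 6.01) as high as in the night gland.

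**Figure D5:**
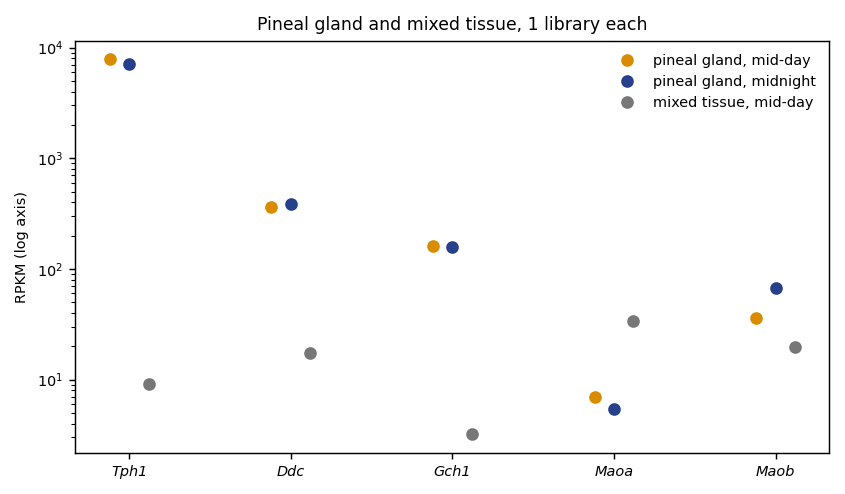
RPKM of the 5 genes in the pineal day, pineal night and mixed tissue libraries (1 library each, log axis). Tph1, Ddc and Gch1 lie far above mixed tissue (9.21, 17.5 and 3.22 RPKM there), Maob less so (19.9 RPKM there), and Maoa lies below it (33.9 RPKM there).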

How the data were processed

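Ribo-depleted total RNA of 36 rat libraries, each from pooled glands (3 per tube) or tissue, was sequenced with strand. Per the submitters' processing notes and the study's methods, the authors aligned reads with STAR 2.3.1y to rn4 and counted read-pairs per Ensembl gene under the HTSeq union rule, which drops those shared between genes. The deposited counts are not normalized. The deposited RPKM are counts over gene length and library total, and served here for levels, ratios and gene lengths.

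Tests on the counts used edgeR (version 4.0.16, R version 4.3.3, TMM, quasi-likelihood, default settings) with the libraries compared and genes whose normalized counts averaged 5 or more. P-values were adjusted over all genes tested (Benjamini-Hochberg) and called under 0.05, SE and 95% intervals came from the test statistic, and p-values measure the spread between pools. Ratios were compared by exact permutation tests, which cannot go below 0.1 for 3 against 3. Replicates differed by more than sampling noise (chi-square per degree of freedom 5.78 to 41.2 over 33 pairs). The fits were tested on simulated data with 200 changed genes, all with counts well above the filter. The data themselves had 5507 genes called in Control night/day, 3304 in Sham, 287 in SCGX and 4603 with NE. Adjustment is stricter where fewer genes change, so the shares recovered describe the simulated setting and not the reported tests. Of 2-fold changes, 89% were recovered in Control night/day, 61% in Sham, 99% in SCGX and 100% with NE. Of 1.5-fold changes, 49% were recovered in Control night/day, 7% in Sham, 91% in SCGX and 89% with NE. Alternatives were DESeq2 1.42.0, other scalings (median-of-ratios, library size), no filter, 1 model per experiment, a replicate block and leaving out each library. Leaving out both libraries that stood apart was added after seeing the data.

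Named genes were the members and those most like them in vivo. The members, lists and tests were chosen with earlier results of these data known. The 122 symbols of related pathway and cell type lists were not analysed here, because identifiers and symbols could not be paired, and rn4 positions were not used here.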

Additional observations from a re-analysis of the deposited data

Results flagged for a closer look

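The night/day change of Ddc differed between SCGX and Sham by -0.793 on the log2 scale by the test of the difference itself, since Ddc was higher at night in every Sham library than in any Sham day library and lower at night in every SCGX library than in any SCGX day library. The other 3 differences of the night/day change, and the other 4 members in this one, did not pass that test. The groups have 3 libraries each, so that single libraries were not tested for standing apart within their group.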

How the results depend on the processing

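Besides leaving out 1 library, 518 of 549 results of single members in the other fits chosen at the start kept their direction and their side of the threshold. Most of these results were uncalled from the start, so this count says little about the calls. When 1 library was left out, 618 of 690 stayed the same, 22 lost a call, 9 gained one and 41 changed sign. With library size only, calls were gained for Maoa in Control night/day (-0.55), Tph1 in Sham night/day (-0.51) and Tph1 (-0.39) and Ddc (-0.29) with NE, and values that were not called changed sign for Maob in Control night/day (-0.11), Gch1 in DCN against Sham by day (0.002), Maoa in SCGX against Sham by day (-0.018), Maoa with NE (-0.067) and Maob with DBcAMP (-0.11). On that scale the pineal night to mixed tissue ratios were 770.3 for Tph1, 22.1 for Ddc, 0.160 for Maoa and 3.41 for Maob. DESeq2 gained Tph1 in Sham (-0.37) and SCGX (-0.32) night/day, and fits without the count filter gained Tph1 in SCGX night/day (-0.32) and with NE (-0.29) and Gch1 in NE against DBcAMP (-0.37). The number of members called against Sham was 1 in DCN by day with DESeq2, with all libraries in 1 model and without the libraries that stood apart, and 1 in DCN at night with DESeq2, library size only and 1 model. It was 2 in SCGX by day with DESeq2 and 2 in SCGX at night with library size only, and 0 in SCGX at night with median-of-ratios size factors, 1 model or without the libraries that stood apart. For SCGX against DCN by day it was 1 with DESeq2. Maob in SCGX against Sham at night, 0.03 as reported, was -0.034 with DESeq2, -0.033 with median-of-ratios size factors and -0.02 with 1 model. Over all genes DESeq2 called 616 (edgeR 287) in SCGX night/day, 104 (5) in Sham against Control by day, 1440 (407) in DCN against Sham by day, 788 (121) in SCGX against DCN by day and 39 (2) in the difference between Sham and Control. The cause of these differences was not tested.

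With the replicate number as a block, Ddc in Sham night/day (0.53) and Tph1 in SCGX against Sham at night lost their calls, Gch1 in SCGX against Sham at night gained one (0.35, adjusted p = 0.0423), and Maob there was -0.001. The block changed no other call. Deviations of libraries with the same number correlated between -0.25 and 0.20, and in 0 of 15 comparisons were all pairs above 0.1, with every library correlating best with its own number in 1 of them, so the numbers were taken as names only. Without the libraries that stood apart, uncalled values changed sign for Ddc in DCN night/day (-0.008), Gch1 in DCN against Sham by day (0.083), Maoa against Sham at night in DCN (0.17) and SCGX (0.018), the difference between SCGX and Sham for Tph1 (-0.018) and Maoa (0.022), and the Maob to Maoa ratio of operated against intact glands by day (0.033).

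Leaving out 1 library at a time gave the following log2 ranges where a call or a sign changed, with any lone library assumed to vary like the others. For night/day they were -0.52 to -0.43 (Tph1), -0.47 to -0.27 (Maoa) and -0.031 to 0.15 (Maob) in Control, 0.46 to 0.73 (Ddc) in Sham, -0.10 to 0.25 (Tph1) and -0.008 to 0.38 (Ddc) in DCN, and -0.16 to 0.26 (Maob) in SCGX. Sham against Control by day gave -0.069 to 0.11 (Ddc) and -0.19 to 0.09 (Gch1). DCN against Sham gave -0.24 to 0.075 (Tph1), 0.66 to 1.06 (Ddc), -0.25 to 0.083 (Gch1) and -0.011 to 0.28 (Maob) by day, and -0.041 to 0.25 (Gch1) and -0.43 to 0.17 (Maoa) at night. SCGX against Sham gave -0.11 to 0.145 (Maoa) and 0.14 to 0.38 (Maob) by day, and 0.335 to 0.55 (Tph1), -0.57 to 0.018 (Maoa) and -0.23 to 0.18 (Maob) at night. SCGX against DCN gave -0.041 to 0.26 (Maob) by day, and -0.14 to 0.21 (Tph1) and -0.19 to 0.024 (Ddc) at night. NE gave -0.40 to -0.20 (Tph1), -0.25 to -0.115 (Ddc), 0.14 to 0.25 (Gch1), -0.10 to 0.13 (Maoa) and 0.12 to 0.29 (Maob), and DBcAMP gave -0.46 to -0.22 (Tph1), -0.35 to -0.18 (Ddc) and -0.034 to 0.14 (Maob). NE against DBcAMP gave -0.067 to 0.145 (Tph1), -0.017 to 0.17 (Ddc), -0.495 to -0.16 (Gch1) and -0.063 to 0.17 (Maoa). The difference of night/day changes ranged from -0.14 to 0.16 (Maob, DCN and Sham), and from -0.018 to 0.22 (Tph1) and -0.58 to 0.022 (Maoa) between SCGX and Sham. Against Sham the members called were 0 to 1 in DCN by day, 1 to 2 in SCGX by day and 0 to 1 in SCGX at night, and the Maob to Maoa ratio of operated against intact glands by day was -0.19 to 0.033.

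With 3 pools per group, a p that missed the threshold does not show that values did not differ. Reads of cells other than pinealocytes and alternative start sites were not separated.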

Other observations

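The single pineal night and day libraries of the tissue comparison, which were sequenced as a separate pool and have no replicate, gave the members in another way than the in vivo groups. With median-of-ratios scaling Maob was 2.21 times as high at night (exact 95% interval 2.10 to 2.31, counting error only), whereas in Control its night/day log2 fold change was 0.07 ± 0.11. Ddc was 1.26 times as high at night (1.24 to 1.28). Tph1 was 1.06 times as high at night (1.06 to 1.07) and Gch1 1.14 times, while both were lower at night in Control. Maoa was at 0.906 of its day level (0.782 to 1.05). On the scale of library size the log2 values were 0.91 for Maob, 0.11 for Ddc, -0.14 for Tph1, -0.04 for Gch1 and -0.37 for Maoa, so that Tph1 and Gch1 changed sign with the scaling. With 1 library a side, the spread between pools is not known for these values.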
